A study of Homo sapiens with 26 samples.

Results

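The response of wild-type-labelled HCT116 cells to 2 nM leptomycin B was read from 7 expression arrays of the 26 in the series. They were chosen by their labels: WT-labelled cells treated for 16 h, replicates 1 to 3 (n = 3), and WT-labelled untreated cells of the same slide, replicates 7 to 10 (n = 4). HCT116 cells derive from a human carcinoma of the colon, and the labels describe an isogenic pair, wild type (WT) or p53 knockout (KO), grown in McCoy medium with serum. The labels name no vehicle for the untreated cells and do not say how the knockout line was derived or how many clones it represents. The other arrays, used here for comparison, were KO-labelled cells at 2 nM (n = 3) with KO-labelled untreated cells of the same slide series (replicates 7 to 10, n = 4), WT-labelled cells at 20 nM (n = 3) with WT-labelled untreated cells of the first slide series (replicates 4 to 6, n = 3), and KO-labelled cells at 20 nM (n = 3) with KO-labelled untreated cells of that series (replicates 4 to 6, n = 3). Values are linear intensities, log2 values were taken after setting intensities under 10 to 10, and changes are treated minus untreated.

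Leptomycin B is a bacterial metabolite that binds covalently to XPO1 (CRM1), the receptor that carries proteins with a leucine-rich export signal out of the nucleus. Proteins that shuttle through the nucleus, such as FOXO factors, class II histone deacetylases, cyclin B1 and p53, accumulate there when XPO1 is blocked. p53 is the transcription factor that induces CDKN1A (p21, an inhibitor of cyclin-dependent kinases) and MDM2 (its own ubiquitin ligase) after stress. In cells with functional p53, induced p21 represses genes of the cell division cycle.

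Epithelial identity and the arrays themselves were checked first. EPCAM, an epithelial adhesion protein, had intensities of 2923, 3424 and 3505 on the treated arrays and 4052, 4341, 4184 and 4311 on the untreated arrays, and the keratins KRT8, KRT18 and KRT19 and CD44 were bright as well, with mean intensities of at least 3621 on treated and 3847 on untreated arrays. Of 16 colon epithelial markers, 8 exceeded 50 on at least 1 of the 7 arrays and 7 were at or under 10 on all 7 arrays. Among the dim ones were VIL1, CDX1, KRT20 and CEACAM5, which mark differentiated colon cells, and also CLDN4, LGALS4 and PROM1. CDH1 (E-cadherin) read at most 13.1 on the 7 arrays, and CLDN3 exceeded 50 only on untreated replicate 10 (56.9). Fibroblast markers (12 genes, 10 of them at or under 10 on all 7 arrays) summed to 30.0 to 45.7 on treated and 32.5 to 43.2 on untreated arrays, and blood and endothelial markers (14 genes, 9 at or under 10 on all 7 arrays) summed to 295 to 328 on treated and 143 to 157 on untreated arrays. The blood sum was higher on every treated array. HBA1, an alpha globin gene, made up most of it on the treated arrays, with 209.8, 207 and 191. On the untreated arrays HBA1 read 49.5, 47.2, 50.1 and 51.2, less than most of the sum. The leukocyte marker PTPRC reached at most 10.7, and PECAM1 and CD34, which mark endothelium, were under 10 on all 7 arrays. CD68, of the same list, read 37.3, 36.6 and 39.2 on treated and 64.4, 64.6, 70.1 and 62.4 on untreated arrays. It was the brightest member on the untreated arrays. CD14 read 26.6, 24.7 and 19.9 on treated arrays and lay under 10 on all untreated arrays. The part of other cells in the results below was not tested, and in bulk RNA fewer cells of a type and less RNA per cell cannot be told apart. Untreated replicate 10 stood apart from replicates 7 to 9: 206 of 12962 genes were over 2-fold higher and 132 over 2-fold lower on it than on their mean. The median SD of a gene was 0.062 log2 over the treated arrays and 0.124 over the untreated arrays, or 0.070 without replicate 10. Treated and untreated arrays shared 1 slide, so slide does not separate them. Separate cultures are not stated for the replicates, and the p-values therefore cover only array-to-array spread, which may be technical.

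The p53 state of these arrays, read from CDKN1A, went against their label. CDKN1A read 1311, 1246 and 1198 on the WT-labelled 2 nM arrays and 615, 636, 665 and 1016 on the WT-labelled untreated arrays. On the KO-labelled arrays of the same series it read 21890, 19727 and 21449 at 2 nM and 4031, 4542, 4276 and 4672 untreated, so the KO-labelled values lay above all WT-labelled ones. Untreated WT-labelled minus KO-labelled cells gave -2.61 log2 in the second series (limma, adjusted p = 1.84e-05) but 2.27 in the first (adjusted p = 0.000324), where CDKN1A read 5212, 17672 and 17963 in WT-labelled and 1291, 3463 and 3330 in KO-labelled cells. In the second series the WT-labelled arrays lay on slide 6 and the KO-labelled arrays on slide 7. Label and slide therefore cannot be told apart there. Among 47 genes that differed by more than 2 log2 units between the untreated cells of the first series (limma, adjusted p under 0.05, mean intensity of at least 50 in the brighter group), the WT-labelled 2 nM arrays were nearer the KO-labelled mean for 42, 40 and 41, and the WT-labelled untreated arrays of the second series for 45, 46, 46 and 45. The KO-labelled 2 nM arrays were nearer that mean for 11 each. For the KO-labelled untreated arrays of the second series the numbers were 16, 15, 16 and 7. Of 54 p53 targets, 1 was higher and 12 were lower in untreated WT-labelled than KO-labelled cells of the second series (median -0.18). In the first series 24 were higher and none lower (median 0.56). Over all 12962 genes, 621 were higher and 565 lower in the second series, and 1010 and 917 in the first. A second, dimmer CDKN1A probe gave -1.35 ± 0.47 log2 between the untreated labels of the second series, short of the threshold (limma, adjusted p = 0.0903 with all probes tested). In the first series it gave 3.15 ± 0.54 (0.000595). The targeted gene's own transcript was not analysed here. The arrays are therefore called WT-labelled and KO-labelled throughout, and every direction between labels rests on labels that these values contradict in one of the slide series.

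**Figure D1:**
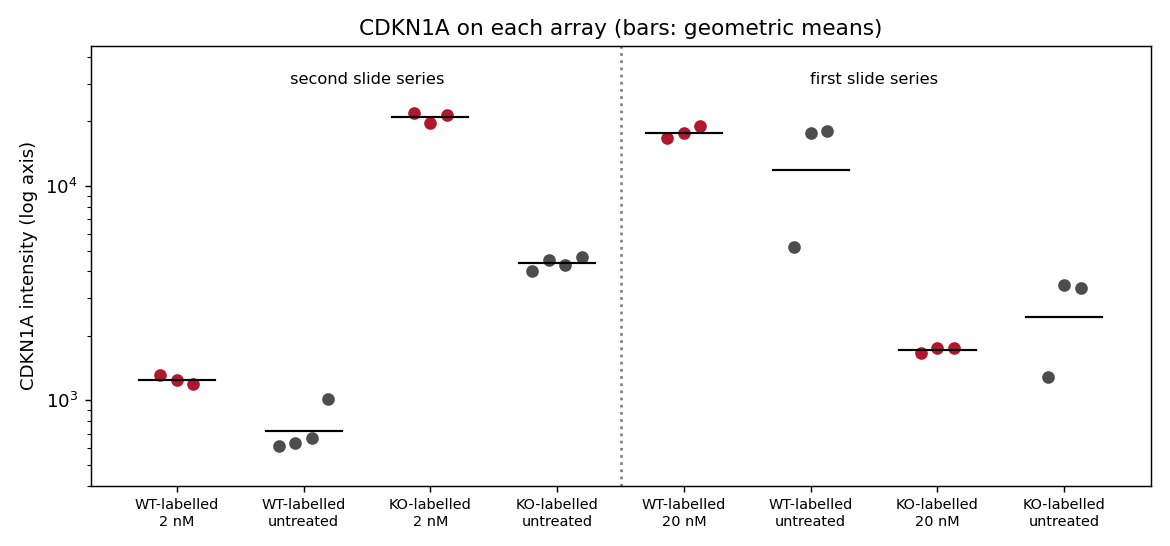
Intensity of CDKN1A (log axis) on each of the 26 arrays, by label, dose and slide series; points are arrays and bars are geometric means. The 3 WT-labelled 2 nM arrays sit at 1198 to 1311 and the 4 WT-labelled untreated arrays of that series at 615 to 1016, below the KO-labelled arrays of the same series, while in the first series the WT-labelled cells are the higher ones.

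Leptomycin B at 2 nM was followed by a broad change in WT-labelled cells, with about as many genes lower as higher. Of 12962 genes tested, 2251 rose (17.4%) and 2480 fell (19.1%) with a Benjamini-Hochberg adjusted p under 0.05 (limma). Among these 4731 genes, 615 rose and 568 fell by more than 2-fold. The median change of all genes was 0. The shares of 17.4% and 19.1% stand beside every list count of this response below, and no list was tested as a set. Without untreated replicate 10, 2170 rose and 2469 fell.

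The genes that rose most came from several families. They were picked among called genes whose treated and untreated arrays do not overlap, so the lack of overlap is by choice. H2AC18, which encodes a core histone H2A, had intensities of 1030.3, 992 and 844 on the treated arrays and 62.6, 61.7, 84.3 and 49.0 on the untreated arrays, a change of 3.91 ± 0.32 log2 (adjusted p = 1.78e-08). C9orf152, an open reading frame with no well-known role, had 127, 133 and 127 on the treated arrays and lay under 10 on all untreated arrays, so it was at least 12.9-fold higher. FOSB, an AP-1 subunit, had 121, 133 and 118 on treated and 12.6, 12.7, 10.6 and 18.7 on untreated arrays. In each of these genes every treated array lay far above every untreated one. SIK1, a salt-inducible kinase that restrains CREB coactivators, had 267, 249 and 235 on treated and 31.6, 31.7, 29.5 and 20.2 on untreated arrays (3.17 ± 0.28 log2). IRS2, the insulin receptor substrate and a FOXO target, had 392, 386 and 353 on treated and 49.0, 51.1, 52.1 and 36.5 on untreated arrays. TENT5C, a noncanonical poly(A) polymerase, had 144, 160.1 and 142 on treated and 17.3, 14.7, 16.6 and 19.6 on untreated arrays. The groups stood several-fold apart in each. HCST, an adaptor of immune receptors, rose 8.91-fold and KLHL15, a substrate adaptor of a cullin ubiquitin ligase, rose 8.50-fold. CCN2 (connective tissue growth factor) had 754, 879 and 910.5 on treated and 133, 131, 132 and 46.5 on untreated arrays; its adjusted p was 0.0177, against 0.0519 without untreated replicate 10, the lowest of the untreated arrays, and 0.0517 without treated replicate 3.

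The gene with the largest fall was FAAP100, a subunit of the Fanconi anaemia core complex, which had 145, 141 and 133 on treated and 1134, 1163, 1110.1 and 695 on untreated arrays (-2.85 ± 0.39 log2, adjusted p = 9.5e-06). CTC1, of the telomere-capping CST complex, had 19.5, 24.5 and 23.9 on treated and 122, 119, 129 and 127 on untreated arrays, and POLA2, the B subunit of DNA polymerase alpha, 39.7, 45.9 and 53.7 on treated and 266, 244, 250.0 and 213 on untreated arrays. The falls were likewise picked among called genes without overlap between treated and untreated arrays. IGF2BP3, an oncofetal RNA-binding protein, had 126, 139 and 141 on treated and 689, 752, 659 and 601 on untreated arrays. EMG1, a methyltransferase of ribosomal RNA, had 631, 626 and 614 on treated and 3468, 3287, 3245 and 2164 on untreated arrays. SH3RF2 (a RING-type ubiquitin ligase) fell by 2.46 log2, NFE2L3 (a transcription factor related to NRF2) by 2.24, CHST15 (a chondroitin sulfotransferase) by 2.20, CLEC16A (an endolysosomal protein) by 2.19 and EXOC6 (an exocyst subunit) by 2.18. The remaining falls among the 12 largest were LETM2 (-2.31 ± 0.44) and THEM6 (-2.28 ± 0.25).

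**Figure D2:**
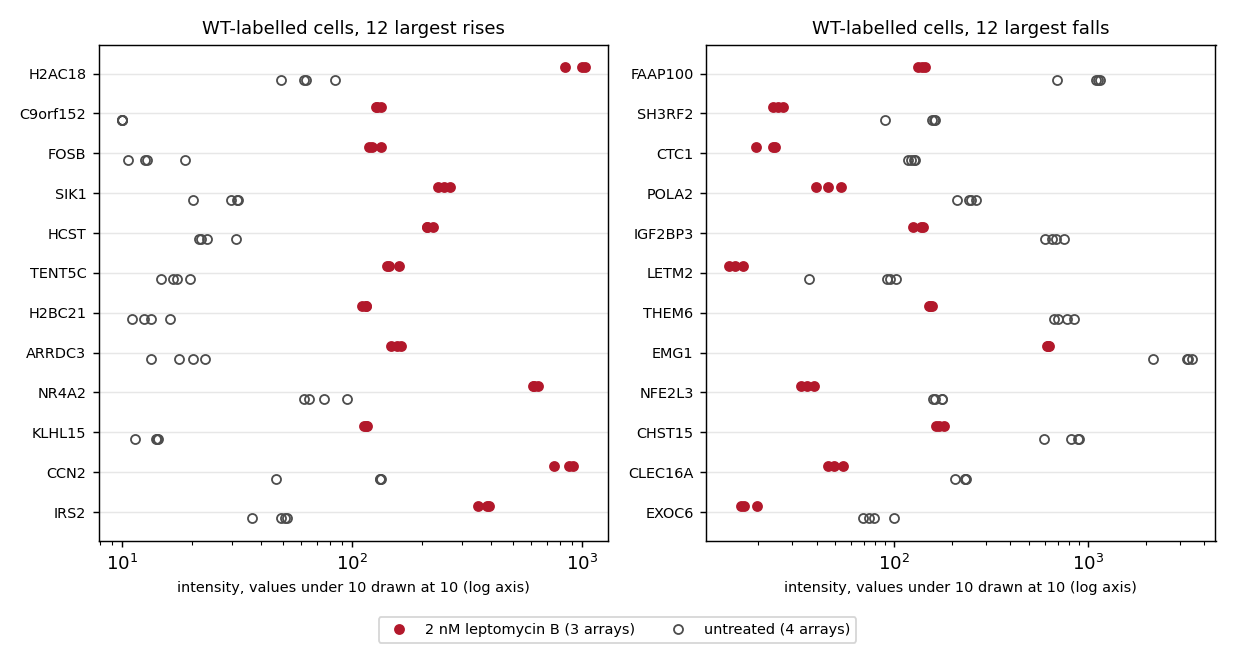
Intensity (log axis, values under 10 drawn at 10) of the 12 genes that rose most and the 12 that fell most in WT-labelled cells; filled points are the 3 arrays at 2 nM leptomycin B and open points the 4 untreated arrays. The 24 were picked among called genes whose treated and untreated arrays do not overlap. H2AC18 spans 844 to 1030.3 on treated and 49.0 to 84.3 on untreated arrays.

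Of the drug's own target and 3 known markers of its inhibition, XPO1, ARRDC3 and NGFR rose and SLC43A2 did not pass the test. XPO1 had 2062, 2184 and 1934 on treated and 1463, 1783, 1337 and 995 on untreated arrays, a rise of 0.59 ± 0.14 log2 (adjusted p = 0.00291), which fitted on the 7 arrays alone had an adjusted p of 0.0721. ARRDC3, an arrestin-fold adaptor of ubiquitin ligases that is followed as a blood marker of XPO1 inhibitors, had 157, 163 and 147 on treated and 20.2, 22.8, 13.3 and 17.6 on untreated arrays (3.10 ± 0.34 log2). NGFR, the p75 neurotrophin receptor and another such marker, read 19.6, 21.6 and 19.0 on treated arrays and lay under 10 on all untreated arrays, at least 2.00-fold higher; with a floor of 20 its change was 0.04. SLC43A2, an amino acid transporter, had 39.1, 40.9 and 40.7 on treated and 47.7, 43.2, 45.2 and 41.2 on untreated arrays (adjusted p = 0.736). Among 37 tested genes of the nuclear export and import machinery, 3 rose and 18 fell, with a median of -0.35 log2. XPO5, the exportin for microRNA precursors, had 226, 247 and 208 on treated and 598, 584, 584 and 357 on untreated arrays. RANGAP1, the GTPase activator that turns over RAN, had 1044, 1163 and 1041 on treated and 2894, 2445, 2784 and 1634 on untreated arrays, and CSE1L, which recycles importin alpha, had 2227, 2383 and 2268 on treated and 4651, 4619, 4556 and 3901 on untreated arrays. NUP50, a nuclear pore protein of the import cycle, went the other way with 549, 669.5 and 656 on treated and 311, 304, 319 and 225 on untreated arrays.

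Of 54 tested p53 targets, 15 rose and 4 fell, with a median of 0.31 log2, set beside 17.4% and 19.1% of all genes. Leaving out untreated replicate 10 left these counts at 15 and 4, and leaving out untreated arrays 4 and 10 of both labels, which lowers the pooled variance, gave 29 and 8. The members that rose most were TOB1, an antiproliferative adaptor of mRNA deadenylation, with 2924, 2269.7 and 2364 on treated and 368, 373, 329 and 499 on untreated arrays, and TP53INP1, a p53-induced nuclear protein, with 65.4, 77.1 and 59.7 on treated and 16.4, 15.4, 13.8 and 31.1 on untreated arrays. PLK2, a polo-like kinase, rose by 1.61 ± 0.21 log2 and PMAIP1 (NOXA, a BH3-only death protein) by 1.61 ± 0.50; the adjusted p of PMAIP1 was 0.0165, and 0.0699 without treated replicate 2. CDKN1A was 1.74-fold higher in treated cells, with no overlap between the arrays, but did not pass the test (0.80 ± 0.35 log2, adjusted p = 0.0799). Its adjusted p was 0.0451 without untreated replicate 10, the highest untreated array, and 0.0235 when the 7 arrays were fitted alone. On the second, dimmer CDKN1A probe, close to the floor of 10 here, the change was 0.03 ± 0.51 log2 and did not pass. MDM2 stayed near the floor, at 16.1, 12.4 and 16.7 on treated and 10.7, 9.27, 12.4 and 11.5 on untreated arrays (adjusted p = 0.29). Without untreated arrays 4 and 10 of both labels its change was 0.44 log2 (adjusted p = 0.00939). GADD45A, a stress sensor (1.07 ± 0.50, adjusted p = 0.107), BLOC1S2 (0.90 ± 0.38, 0.0693) and the receptor kinase EPHA2 (0.88 ± 0.49, 0.181) did not pass the test either. Fitted on the 7 arrays alone, GADD45A (adjusted p = 0.000215) and BLOC1S2 (7.16e-05) passed, BLOC1S2 also with a floor of 5 (0.0470) or the slide as a random block (0.0476), and CDKN1A, GADD45A, BLOC1S2 and EPHA2 all passed without untreated arrays 4 and 10 of both labels (adjusted p of at most 7.93e-08).

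Replication-dependent histone genes, whose transcripts normally end in a stem-loop instead of a poly(A) tail, moved upward as a family. Of 43 tested, 27 rose and 1 fell, with a median of 0.60 log2. H2BC21 read 115, 115 and 111 on treated and 12.4, 16.1, 13.4 and 10.97 on untreated arrays, and H4C14 439.6, 420.0 and 409.8 on treated and 55.8, 53.4, 55.4 and 48.7 on untreated arrays (2.99 ± 0.07 log2, adjusted p = 6.18e-16). H2BC12, the brightest of those that rose, read 8947, 8827 and 8082 on treated and 1270.5, 1380.0, 1458 and 1421 on untreated arrays. The treated arrays lay several-fold above the untreated ones in each. The member that fell was H4C3 (named after its values were seen), which was also the brightest of the list, with mean intensities of 13205 on treated and 18581 on untreated arrays (-0.49 ± 0.07 log2, adjusted p = 1.99e-05). Histone genes share near-identical coding sequence, so values of single members are uncertain, and 15 of the 58 listed were not tested because they are not on the array or too dim. Many H2B genes carry an octamer motif (ATTTGCAT, bound by OCT1) just before their start site, and they often sit head to head with an H2A gene. In the 250 bases before the start site (RefSeq, GRCh38.p14, both strands), 24 of the 53 histone genes with a promoter entry held it (45.3%), beside 2.03% of 27305 genes. The windows of 2 members that rose are shown because they carry this motif, with the octamer in capitals.
H2BC21 (chr1:149886699-149886750, minus strand): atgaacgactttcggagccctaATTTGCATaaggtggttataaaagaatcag
H2BC12 (chr6:27146875-27146926, minus strand): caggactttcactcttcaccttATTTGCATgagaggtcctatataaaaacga
The first window is also the promoter of H2AC20, which starts on the opposite strand and was itself 2.39 ± 0.09 log2 higher, with mean intensities of 684 on treated and 130.3 on untreated arrays (adjusted p = 2.01e-13; H2AC20 was picked for this shared promoter after its values were known). Of the tested members with the octamer, 12 of 17 rose with a median of 0.94, and of those without it 13 of 21 with a median of 0.63; this split was not tested.

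Immediate early genes and genes linked to cAMP signalling were among the strongest rises. Of 17 tested immediate early and AP-1 genes, 8 rose and none fell, with a median of 0.64 log2; without untreated replicate 10, 7 rose and 1 fell. ATF3, a stress-induced bZIP factor, read 1909, 1980.4 and 1818 on treated and 254, 229, 266 and 225 on untreated arrays, a 7.83-fold difference (adjusted p = 0.00797). MAFF, a small MAF protein, read 104, 109.9 and 101 on treated and 20.3, 19.7, 20.0 and 11.5 on untreated arrays. CCN1, a matricellular protein, read 322, 338 and 339.5 on treated and 96.9, 89.4, 112 and 31.1 on untreated arrays, the last of which is again replicate 10. Of 16 tested cAMP-linked genes, 7 rose and 2 fell. NR4A2, an orphan nuclear receptor, read 641, 612 and 618 on treated and 65.0, 61.4, 75.6 and 94.8 on untreated arrays, and NR4A1, its relative, read 34.8, 30.0 and 33.6 on treated and 8.08, 6.48, 10.6 and 5.83 on untreated arrays, 3 of them under the floor of 10. Every treated array exceeded every untreated one for both, which for NR4A2 is by choice, as it was picked among genes without overlap. Of the 4731 called genes, 4550 had no overlap. PDE4B, a phosphodiesterase that degrades cAMP, and CREM, a factor of the CREB family, were the members that fell (both named after their values were seen). GPR3, a receptor that raises cAMP without a ligand, read 172, 167 and 159.9 on treated and 30.1, 30.4, 30.9 and 20.2 on untreated arrays. The cAMP response element TGACGTCA (its own reverse complement) occurred before a start site of 3 of the 16 listed genes with a promoter entry (18.8%), beside 2.03% of 27305 genes. It also occurred in 7 of 53 histone genes (13.2%) and 2 of 15 immediate early genes (13.3%), H2BC12 and MAFF among them. Of the 3 cAMP-linked genes with it, GPR3 and PRKAR1A, a regulatory subunit of protein kinase A (named after its values were seen), rose and CREM fell. Of 11 tested cAMP-linked genes without the element 3 rose, and this split was not tested. GPR3 rose most, and its window is shown with the element in capitals.
GPR3 (chr1:27392564-27392615, plus strand): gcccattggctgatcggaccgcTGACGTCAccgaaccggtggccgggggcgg
ERK feedback genes were mixed, with 5 rises and 2 falls among 17 tested. HBEGF, an EGF receptor ligand, read 113, 105 and 98.6 on treated and 20.7, 19.3, 20.3 and 18.4 on untreated arrays. The phosphatase DUSP1 rose by 1.36 ± 0.25 log2, and PHLDA1 fell by 1.03.

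FOXO factors are held in the cytoplasm by AKT and leave the nucleus through XPO1. Of 19 tested FOXO factors and targets, 12 rose and none fell, with a median of 0.84 log2. CITED2, a coregulator of CBP and p300, read 708, 727 and 674 on treated and 121, 118, 117 and 142 on untreated arrays (2.50 ± 0.26 log2, adjusted p = 4.17e-07). BCL6, a transcriptional repressor, read 301, 302 and 303 on treated and 61.2, 50.3, 45.5 and 109 on untreated arrays. FBXO32 (atrogin-1, a ubiquitin ligase subunit) read 49.1, 56.0 and 53.7 on treated and 9.17, 10.8, 12.4 and 18.7 on untreated arrays. BCL2L11 (BIM, a death-promoting BH3-only protein) read 35.2, 28.4 and 31.0 on treated arrays and lay under 10 on all untreated arrays, at least 3.14-fold higher. Of 28 tested lysosome and autophagy genes, 15 rose and 4 fell, or 15 and 1 without untreated replicate 10. MAP1LC3B, the autophagosome protein LC3B, read 1344, 1350.2 and 1422 on treated and 380.3, 442, 393 and 402 on untreated arrays. CTSL, a lysosomal protease, rose 3.14-fold and ULK1, the kinase that starts autophagy, 2.47-fold, while SLC17A5, a lysosomal sialic acid exporter, fell by 1.61 log2. Among 19 TGF-beta and BMP targets, 8 rose and 2 fell. BAMBI, a decoy receptor, read 1688, 1847 and 1769 on treated and 289, 302, 328 and 259 on untreated arrays (2.59 ± 0.11 log2), and ID2, an inhibitor of bHLH factors, read 1468, 1338 and 1358 on treated and 389.8, 392, 478 and 266 on untreated arrays. Among 14 Wnt targets, 4 rose and 3 fell, with AXIN2, a negative regulator of the pathway, 2.97-fold higher.

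More genes of the cell cycle fell than rose in WT-labelled cells. Among all genes tested 17.4% rose and 19.1% fell, and the rises in the G2/M and G1/S lists were near that share. Of 46 tested G2/M genes, 8 rose and 15 fell, with a median of -0.20 log2. CCNF (cyclin F) read 31.1, 36.9 and 37.8 on treated and 99.1, 92.3, 93.7 and 103 on untreated arrays, and BUB1B, a spindle checkpoint kinase, 245, 261 and 252 on treated and 568, 591, 593 and 498 on untreated arrays. CDC25A, a phosphatase that activates cyclin-dependent kinases, was higher at 730.4, 728 and 645 on treated and 446, 431, 377 and 249 on untreated arrays. Of 49 tested G1/S and DNA replication genes, 8 rose and 22 fell, with a median of -0.27. CDC45, of the replicative helicase, read 36.7, 39.5 and 35.6 on treated and 126, 129, 124 and 105 on untreated arrays, and CHAF1A, the large subunit of chromatin assembly factor 1, 50.4, 47.9 and 47.3 on treated and 162, 151, 173 and 117 on untreated arrays. CCNE1 (cyclin E1) was 3.08-fold higher in treated cells, at 468, 500.0 and 507 on treated and 176, 175, 192 and 109.7 on untreated arrays. Of 28 tested DNA repair genes, 2 rose and 12 fell (median -0.35). BRCA1, of homologous recombination, read 32.7, 36.4 and 39.1 on treated and 102, 95.9, 120.1 and 94.2 on untreated arrays, and FANCC, of the Fanconi core complex, 11.3, 12.5 and 12.6 on treated and 37.1, 26.7, 29.4 and 35.3 on untreated arrays.

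In the NRF2, ATF4, heat shock and endoplasmic reticulum lists, most of the tested members passed no test. Of all genes 17.4% rose and 19.1% fell. Of 19 tested NRF2 and glutathione genes, none rose and 9 fell (median -0.31). GCLM, the modifier subunit of glutamate-cysteine ligase, read 310.1, 297 and 292 on treated and 790.4, 764, 873 and 486 on untreated arrays, and NQO1, a quinone reductase, 1840.2, 1684 and 1909 on treated and 3184, 3249, 3493 and 4674 on untreated arrays. Of 33 tested genes of the ATF4 and amino acid response, 1 rose (ATF3) and 11 fell. AARS1 and YARS1, which charge tRNAs with alanine and tyrosine, changed by -1.61 ± 0.15 and -1.50 ± 0.12 log2; without untreated replicate 10 the counts were 3 and 10. Of 18 heat shock genes, 1 rose and 5 fell, HSPA8 (HSC70) reading 9553, 10224 and 9627 on treated and 18329, 17613, 17519 and 14694 on untreated arrays. Endoplasmic reticulum chaperones were split (4 rose and 5 fell of 22, or 3 and 3 without replicate 10): ERN1, the IRE1 stress sensor, was 3.69-fold higher and HSPA5 (BiP) fell by 1.32 log2. Among 20 NF-kB targets, 3 rose and none fell, with rises near the share of all genes. NFKBIA, the inhibitor that shuttles NF-kB out of the nucleus, read 2129, 1893 and 2089.5 on treated and 466, 599, 795 and 720.1 on untreated arrays. SOD2, the mitochondrial superoxide dismutase, read 2203, 1877 and 2177 on treated and 749.9, 769.5, 847 and 649 on untreated arrays, and IRF1, an interferon regulatory factor, was the remaining riser (0.84 ± 0.30 log2, adjusted p = 0.0337); its adjusted p was above 0.05 when any 1 of the treated arrays or of untreated replicates 7 to 9 was left out.

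The other lists were less uniform, set beside 17.4% rising and 19.1% falling among all genes. The housekeeping, sterol synthesis, and BCL2 and caspase counts were near those shares. Of 30 splicing and mRNA export factors, 7 rose and 14 fell; CLK1, a kinase of SR proteins, was 3.03-fold higher, while the SR proteins SRSF3 and SRSF7 fell by 1.15 and 1.18 log2. Of 40 ribosome biogenesis genes, 8 rose and 10 fell, or 5 and 13 without untreated replicate 10; BOP1, of the PeBoW complex, read 2311, 2341 and 2241 on treated and 6219.9, 6733, 7117 and 4972 on untreated arrays. Of 28 interferon response genes, 8 rose and none fell, among them HLA-E, a non-classical class I molecule, with 542, 481 and 525 on treated and 149, 163, 173 and 155 on untreated arrays, and IRF7 (1.46 ± 0.19 log2). Of 12 metallothionein and zinc transport genes, 3 rose and 1 fell. The zinc exporter SLC30A1 read 163, 170.1 and 156 on treated and 48.3, 49.3, 50.7 and 23.1 on untreated arrays, and MTF1, the zinc-sensing factor, was 2.50-fold higher. SLC30A5, the remaining rise, changed by -0.79 log2 on another probe. The fall, of SLC39A10, was not called with a floor of 20, on the 7 arrays alone, or without untreated replicate 10. Of 33 oxidative phosphorylation genes, 13 rose and 4 fell, with a median of 0.10; UQCRB, of complex III, was 2.02-fold higher. Of 14 clock genes, 5 rose and none fell; BHLHE40, a repressor of the clock, read 521, 551 and 532 on treated and 121, 119, 127 and 417 on untreated arrays. Sterol synthesis genes (4 rose and 3 fell of 21) and the BCL2 and caspase list (4 and 6 of 25) were split, MVK (mevalonate kinase) falling by 1.04 and APAF1, of the apoptosome, rising by 1.17 ± 0.16 log2. With a floor of 20, MVK changed by -0.16 and its adjusted p was 0.419. Of 20 housekeeping genes, 4 rose and 4 fell (median 0.06), B2M being 1.83-fold higher. Cytosolic ribosomal protein genes had 11 rises and 1 fall among 46 (10 and none without untreated replicate 10), with a median of 0.04. Among the markers of other cells, 2 of 9 blood and endothelial genes rose (HBA1 by 2.03 ± 0.22 log2, and CD14), CD68 fell, and none of 4 fibroblast genes passed the test. Of 13 epithelial markers, CDX2, an intestinal transcription factor, rose by 0.50 ± 0.08 log2, while CLDN7 (a tight junction claudin), KRT19 and EPCAM fell.

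**Figure D3:**
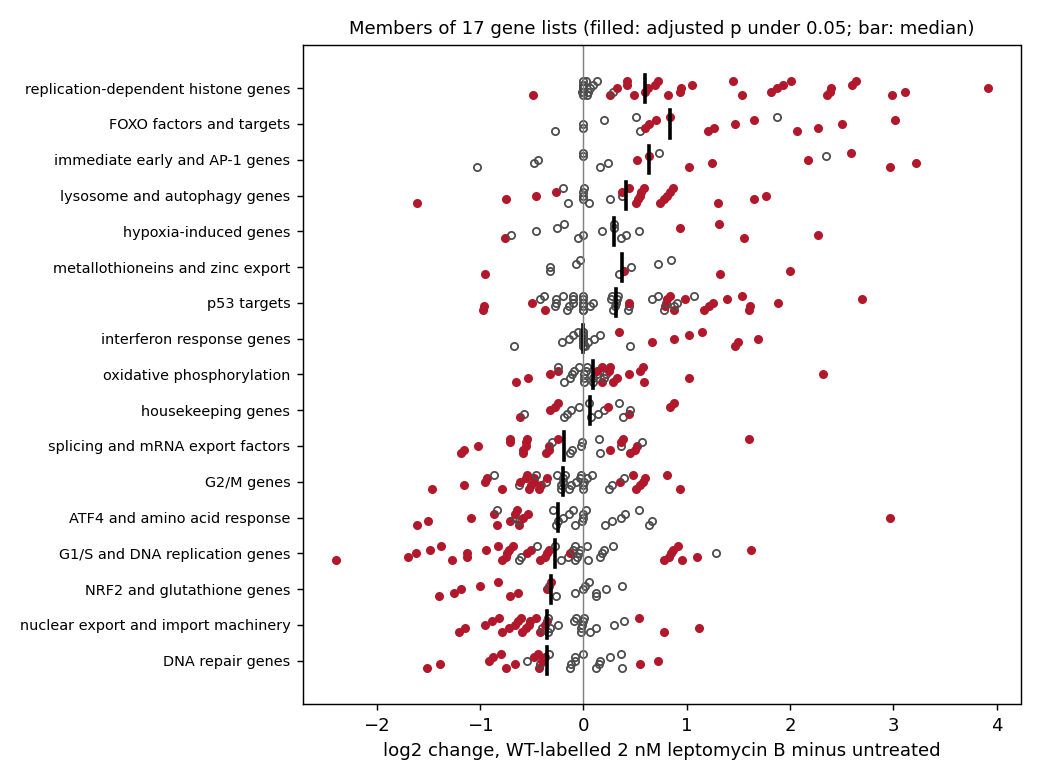
Change of each tested member of 17 gene lists in WT-labelled cells (log2, 2 nM leptomycin B minus untreated); filled points passed the test and black bars are list medians. Histone genes span up to 3.91 around a median of 0.60 and FOXO genes up to 3.01 around 0.84, and transport and DNA repair genes have medians of -0.35 each.

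Whether WT-labelled and KO-labelled cells responded alike to 2 nM was tested as the difference of the responses, which share no array. Across 12962 genes the changes correlated with r = 0.76 (genes are not independent, and no p is given). Of 1183 genes changed over 2-fold in WT-labelled cells, 1155 moved the same way in KO-labelled cells, and 1060 were also called there. In KO-labelled cells 2806 genes rose (21.6%) and 2825 fell (21.8%). The response of WT-labelled cells was higher for 777 genes (5.99%) and lower for 770 (5.94%). Without untreated arrays 4 and 10 of both labels 3947 genes differed, against 1547 with them.

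The p53 targets and genes of cell division responded differently between labels. For 54 p53 targets, the WT-labelled response was higher in none and lower in 32, with a median difference of -1.52; 15 rose in WT-labelled and 48 in KO-labelled cells. TP53I3, a p53-induced quinone oxidoreductase, changed by -0.26 ± 0.39 log2 in WT-labelled and 3.81 ± 0.39 in KO-labelled cells, a difference of -4.07 ± 0.56 (adjusted p = 3.7e-05). SERPINB5 (maspin), another target, changed by 0.34 ± 0.24 in WT-labelled and 4.18 ± 0.24 in KO-labelled cells. For CDKN1A the difference was -1.46 ± 0.49 (adjusted p = 0.0606), short of the threshold, and for MDM2 -2.23 ± 0.41 (0.000759). The CDKN1A difference did pass with a floor of 5 (adjusted p = 0.0423), with log2(intensity + 16) (0.0341), with the slide (0.0430) or the replicate number (0.00292) as a block, and without untreated arrays 4 and 10 of both labels (-1.33, adjusted p = 4.26e-09). The second, dimmer CDKN1A probe read 10.7, 9.62 and 7.36 at 2 nM and under 10 on all untreated arrays in WT-labelled cells. In KO-labelled cells it read 279, 290 and 283 at 2 nM and 26.1, 25.4, 31.1 and 20.5 untreated. On that probe the difference was -3.44 ± 0.72 (adjusted p = 0.00284 with all probes tested). All 46 G2/M genes were tested, and the WT-labelled response was higher in 43 and lower in none; 15 fell in WT-labelled and 43 in KO-labelled cells, with medians of -0.20 and -1.87. CENPA, the centromeric histone, read 356, 350.0 and 329 at 2 nM and 448, 448, 509.6 and 458 untreated in WT-labelled cells, and 32.6, 30.3 and 35.3 at 2 nM and 457, 472, 472 and 361 untreated in KO-labelled cells, a difference of 3.31 ± 0.22 (adjusted p = 4.38e-09). HJURP, its chaperone, differed by 2.75 ± 0.19. For G1/S genes the WT-labelled response was higher in 33 of 49 and lower in none, and for DNA repair genes in 10 of 28 and none. Without untreated arrays 4 and 10 of both labels, p53 targets were lower in 43, G2/M genes higher in 45, G1/S genes higher in 41, and DNA repair genes higher in 17 and lower in 1. RGS2, a brake on G-protein signalling, read 97.5, 90.6 and 101 at 2 nM and 19.9, 22.8, 19.8 and 21.4 untreated in WT-labelled cells, and 184, 174 and 233 at 2 nM and 221, 238, 222 and 689 untreated in KO-labelled cells. ADGRF1, an adhesion receptor, differed by 3.09 ± 0.24, while the cholesterol exporter ABCA1 and the adhesion molecule CEACAM1 lay under 10 on all WT-labelled 2 nM and second-series untreated arrays and were called higher in KO-labelled cells at 2 nM. ABCA1 read 165, 133 and 143 at 2 nM in KO-labelled cells, and CEACAM1 126, 117 and 125; both were under 10 on KO-labelled untreated replicates 7 to 9, and their fitted changes are therefore too small. Histone genes differed between labels in 8 of 43 cases, 7 of them higher in WT-labelled cells (11 higher and 2 lower without untreated arrays 4 and 10 of both labels), and XPO1 differed by 0.06 ± 0.20 (adjusted p = 1), or by -0.096 without WT-labelled untreated replicate 10 and -0.0073 without KO-labelled untreated replicate 8.

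**Figure D4:**
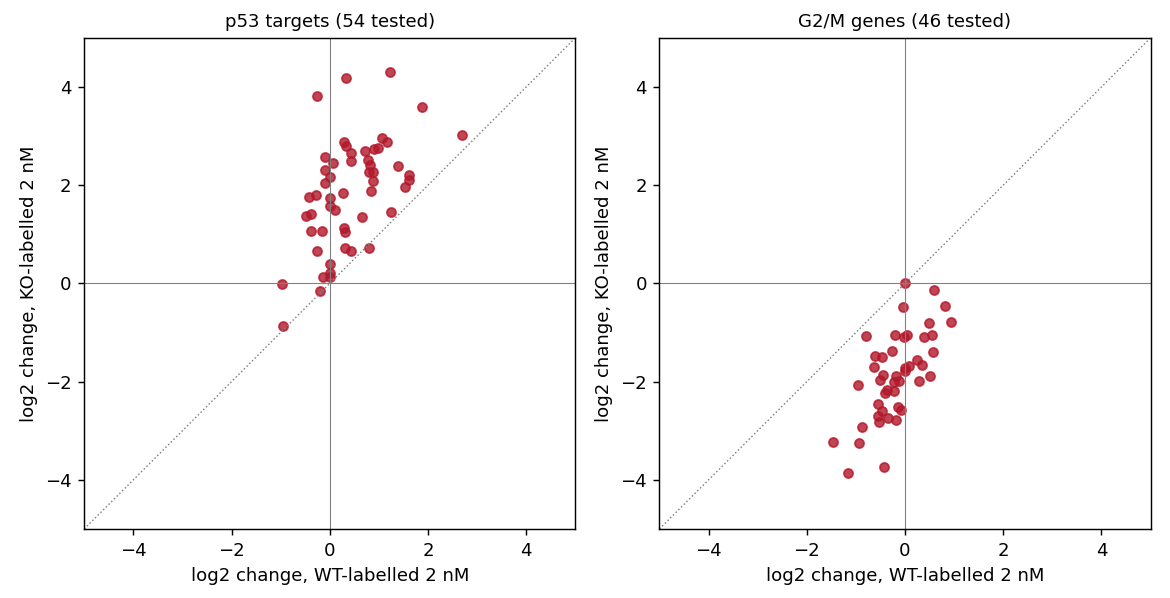
Change at 2 nM leptomycin B in WT-labelled cells (x axis) and KO-labelled cells (y axis), log2, for 54 p53 targets and 46 G2/M genes; each point is a gene and the dotted line marks equal change. Most p53 targets lie above the line and most G2/M genes below it, with KO-labelled medians of 2.00 and -1.87.

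The dose, the slide series and, in WT-labelled cells, the p53 state read from CDKN1A differ together between the 2 nM and the 20 nM arrays. Their effects cannot be told apart. For both labels the 20 nM arrays also lay on other slides than their untreated arrays. Slide and treatment therefore cannot be told apart within the 20 nM responses. CDKN1A read 16770, 17617 and 18949 on the WT-labelled 20 nM arrays, against 1311, 1246 and 1198 at 2 nM. Of the 47 genes of the label check, 8, 9 and 9 were nearer the KO-labelled mean at 20 nM, against 42, 40 and 41. In WT-labelled cells at 20 nM, 2729 genes rose (21.1%) and 2875 fell (22.2%). Changes correlated with those at 2 nM with r = 0.66 across genes, and of the 1183 genes over 2-fold at 2 nM, 1103 moved the same way. The 2 nM response was higher for 1289 genes (9.94%) and lower for 1240 (9.57%). FRAT2, a Wnt pathway activator, changed by 2.44 ± 0.30 log2 at 2 nM and -0.87 ± 0.32 at 20 nM, a difference of 3.32 ± 0.43 (adjusted p = 3.11e-05). IRX3, a homeobox factor, differed by 3.19 ± 0.34. Hypoxia-induced genes had 4 rises and 1 fall among 17 at 2 nM, against no rise and 7 falls at 20 nM. ADM and NDRG1, among these rises, were not called when any single 2 nM array or untreated replicate 7, 8 or 9 was left out. Of the 17 genes, 5 differed, all higher at 2 nM. Without untreated arrays 4 and 10 of both labels, 15 were higher and 1 lower. ANKRD37, one of them, read 118, 135 and 124 at 2 nM and 21.7, 24.6, 27.1 and 31.6 on its untreated arrays, and differed by 2.90 ± 0.72 (adjusted p = 0.00801); BNIP3L, a mitophagy receptor, differed by 3.19 ± 0.64. FOXO targets differed in 9 of 19, all higher at 2 nM (16 higher and 1 lower without those arrays), among them FBXO32 (2.76 ± 0.41). For p53 targets the 2 nM response was lower in 21 of 54 and higher in none, but lower in 24 and higher in 16 once untreated arrays 4 and 10 were left out for both labels; SERPINB5 differed by -2.72 ± 0.35 and INKA1, a kinase inhibitor, by -2.53 ± 0.37. G2/M genes were higher in 35 of 46, or 38 higher and 2 lower without those arrays. CDKN1A differed by 0.22 ± 0.51 (adjusted p = 0.935), a value whose sign turned when WT-labelled untreated replicate 5 or 6 of the first series was left out. It was 0.97 (adjusted p = 1.20e-07) without untreated arrays 4 and 10 of both labels, and -1.86 ± 0.74 (adjusted p = 0.0935) on the second probe. MDM2 differed by -1.20 ± 0.42 (0.0509). The MDM2 difference passed without replicate 5 (adjusted p = 0.0168) or 6 (0.0363) of those arrays. XPO1 differed by 0.12 ± 0.21 (0.857), and by -0.035 without WT-labelled untreated replicate 10.

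Against KO-labelled cells at 20 nM, where 2378 genes rose (18.3%) and 2438 fell (18.8%), the WT-labelled 2 nM response was higher for 429 genes (3.31%) and lower for 399 (3.08%). That count of 828 rests on single arrays: it was 3715 without KO-labelled untreated replicate 4, 188 and 187 without KO-labelled untreated replicates 5 and 6, 442, 508 and 464 without WT-labelled untreated replicates 7, 8 and 9, 390, 309 and 413 without WT-labelled 2 nM replicates 1, 2 and 3, 353, 377 and 452 without KO-labelled 20 nM replicates 1, 2 and 3, and 317 with the slide as a random block. Treated and untreated arrays of the KO-labelled 20 nM response lay on different slides. Changes correlated with r = 0.69 across genes. Of 54 p53 targets 1 was higher and 1 lower, and of 46 G2/M genes none was higher and 1 lower, so the contrast seen against KO-labelled cells at 2 nM was not detectable here; without untreated arrays 4 and 10 of both labels, 26 and 8 p53 targets and 12 and 14 G2/M genes differed. CDKN1A differed by 1.32 ± 0.51 (adjusted p = 0.112), MDM2 by 0.94 ± 0.42 (0.17) and XPO1 by 0.27 ± 0.21 (0.482). The CDKN1A difference passed without KO-labelled untreated replicate 4 (adjusted p = 0.0063), as did that of MDM2 (0.0297). On the second CDKN1A probe the sign was the other way, at -0.30 ± 0.74 (adjusted p = 0.989 with all probes tested). Among the metallothioneins, which chelate zinc, MT1X changed by 0.84 ± 0.45 log2 at 2 nM (adjusted p = 0.16) and by 3.17 ± 0.48 in KO-labelled cells at 20 nM, a difference of -2.32 ± 0.65 (adjusted p = 0.0409). The metallothionein family shares near-identical sequence, and of 12 zinc genes 3 rose in WT-labelled cells at 2 nM, 8 in WT-labelled and 9 in KO-labelled cells at 20 nM. ANKRD10, an ankyrin-repeat protein, read 559, 617 and 589 on treated and 96.1, 93.5, 80.5 and 57.3 on untreated WT-labelled arrays and differed by 2.54 ± 0.72. OVGP1, an oviductal glycoprotein, differed by 2.41 ± 0.67, and KNSTRN, a kinetochore protein, which read 199.5, 189 and 208 on treated and 496, 495, 544 and 400.1 on untreated WT-labelled arrays, by -1.64 ± 0.35; its adjusted p was 0.0142, but 0.0544 and 0.0560 without KO-labelled untreated replicates 5 and 6. The difference calls for MT1X, ANKRD10 and OVGP1 were lost in at least 11 of the 13 fits that each left out 1 array.

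**Figure D5:**
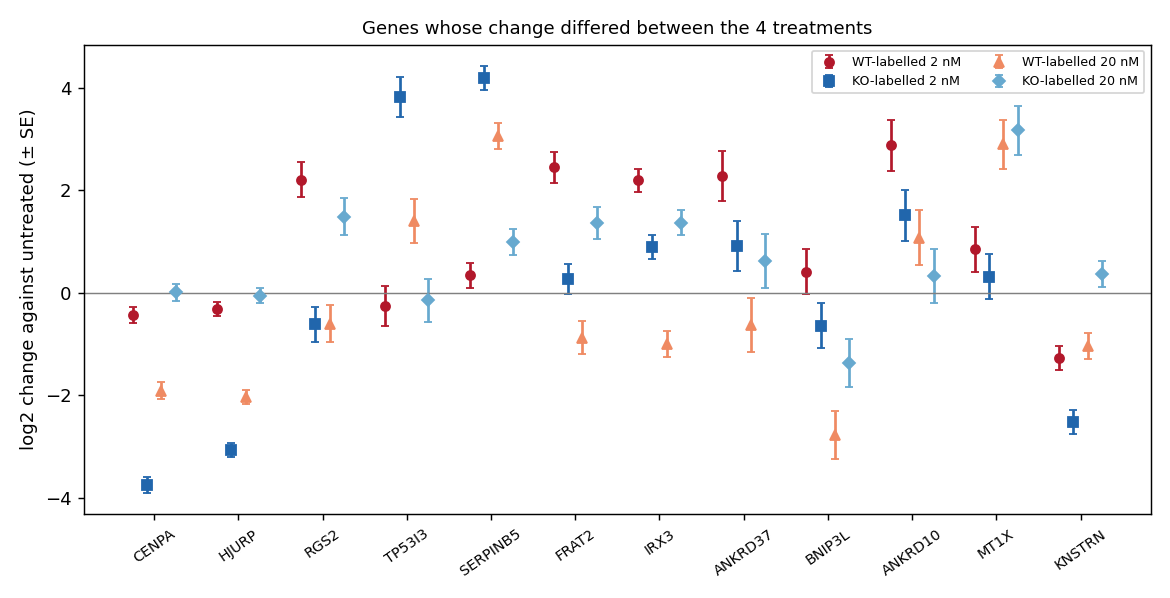
Change against untreated cells (log2 ± SE) of 12 genes named for a difference between responses, in WT-labelled and KO-labelled cells at 2 and 20 nM leptomycin B. CENPA and HJURP fall and SERPINB5 rises most in KO-labelled cells at 2 nM, RGS2, FRAT2 and ANKRD37 rise most in WT-labelled cells at 2 nM, and MT1X rises at 20 nM in both.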

How the data were processed

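Total RNA, extracted with Trizol, was amplified and labelled with an Illumina kit and hybridised to Illumina BeadChips, 1 channel each, per the labels' protocols. The deposited values are linear probe intensities, some below 0, and the submitters' processing notes name BeadStudio; the version, background step and normalization were not given in the sources used here. High percentiles of the arrays differed by at most 2.90%, and 20.4% of all values were below 0. No further normalization was applied. Values under 10 were set to 10 and log2 was taken. Of 22177 probes, 21101 had 1 gene symbol and 1076 none. Each gene was read from its brightest probe by mean intensity, and genes above an array's 40th percentile on at least 3 arrays were tested (12962 of 17283). Among these, 26.4% of the values of the 7 arrays were at or below 10, where changes are bounds.

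A linear model in limma 3.58.1 (R 4.3.3, with statmod 1.5.0 for the slide block) held 8 groups over 26 arrays, leaving 18 residual degrees of freedom, and p-values were Benjamini-Hochberg adjusted over all genes tested at a threshold of 0.05. The script was tested on simulated data. A fold against arrays all at the floor is given as a bound. Named genes were the 12 largest rises and 12 largest falls without overlap and with a mean intensity of at least 50, the 4 largest differences each way, up to 4 called members per list, and CDKN1A, MDM2 and XPO1 throughout. The members and lists were chosen with earlier results of these data known. Promoter sequences came from RefSeq (GRCh38.p14), where 53 of 58 histone and 16 of 18 cAMP-linked genes had an entry. Alternatives were other floors, an offset of 16, quantile normalization, no filter, all probes, a slide or replicate block, the 7 arrays alone and each array left out. Leaving out untreated arrays 4 and 10 of both labels was chosen after seeing the data. The number of arrays limits the precision.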

Additional observations from a re-analysis of the deposited data

Results flagged for a closer look

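Among the genes named above, 1 untreated array often lay far from the other 3 of its group. In 34 of 129 groups of 4 untreated arrays, the gap to the nearest array divided by the whole range exceeded the critical value of Dixon's test, where chance gives about 1 in 20. Replicate 10 was the far array in 33 of them. WT-labelled untreated replicate 10 was the lowest array, with the ratio in brackets, for BLOC1S2 (0.855), CCN2 (0.990), CCNE1 (0.834), CLEC16A (0.859), CSE1L (0.883), EMG1 (0.859), EPHA2 (0.877), FAAP100 (0.909), GPR3 (0.943), KLHL15 (0.914), LETM2 (0.904), MAFF (0.947), MT1X (0.865), NUP50 (0.867), SH3RF2 (0.944), SIK1 (0.846), SLC30A1 (0.936) and XPO5 (0.954). It was the highest array for APAF1 (0.865), BHLHE40 (0.950), BNIP3L (0.881), CDKN1A (0.845), CITED2 (0.846), CTSL (0.857), FRAT2 (0.881), HSPA5 (0.900), SERPINB5 (0.906) and TP53I3 (0.844). For NR4A1 the far array was replicate 9 (1.000), the sole untreated array above the floor of 10. Among KO-labelled untreated arrays, replicate 10 was the lowest for CENPA (0.884). Among KO-labelled untreated arrays, replicate 10 was the highest for ABCA1 (1.000), CEACAM1 (1.000), RGS2 (0.936) and TP53I3 (0.964). Fitted changes of genes with untreated arrays under the floor, such as ABCA1 and CEACAM1, understate the difference.

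The response to leptomycin B differed between groups for the genes below, by limma's test of the difference with an adjusted p under 0.05. The value in brackets is the log2 response of WT-labelled cells at 2 nM minus the other response. Against KO-labelled cells at 2 nM these were CENPA (3.31), ADGRF1 (3.09), RGS2 (2.82), HJURP (2.75), TP53I3 (-4.07), SERPINB5 (-3.85), ABCA1 (-3.46), CEACAM1 (-3.40) and MDM2 (-2.23). Against WT-labelled cells at 20 nM they were FRAT2 (3.32), IRX3 (3.19), BNIP3L (3.19), ANKRD37 (2.90), SERPINB5 (-2.72), INKA1 (-2.53) and FBXO32 (2.76). Against KO-labelled cells at 20 nM they were ANKRD10 (2.54), OVGP1 (2.41), MT1X (-2.32) and KNSTRN (-1.64). Apart from MDM2 and FBXO32, all were named by their size in these data, so the sizes are descriptions.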

How the results depend on the processing

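The count of 4731 genes changed in WT-labelled cells at 2 nM stayed within 1.5 times under each alternative listed in the processing section (4037 to 4639 with 1 array left out). The difference from KO-labelled cells at 2 nM counted 1281 to 1812 genes with 1 array left out, that from WT-labelled cells at 20 nM 1886 to 3367, and that from KO-labelled cells at 20 nM 187 to 3715. Untreated labels differed in 861 to 1516 genes in the second slide series and 1100 to 3850 in the first, and CDKN1A in between -2.78 and -2.53 and between 1.80 and 2.86 log2. With the slide as a random block (consensus correlation 0.242), the difference from KO-labelled cells at 20 nM counted 317 genes, the untreated labels 324 in the second series and 1175 in the first.

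Replicate numbers did not pair all arrays. Same-numbered deviations of the 2 labels correlated at -0.04 to -0.03 on treated arrays and at 0.33, 0.47, 0.56 and 0.81 for untreated replicates 7, 8, 9 and 10, but untreated replicates 7 to 9 also correlated across numbers (0.33 to 0.54). With a replicate block, the difference from KO-labelled cells at 2 nM counted 2976 genes and the untreated labels of the second series 2600, against 1547 and 1186 without it. Without untreated arrays 4 and 10 of both labels, the counts were 6654 for the response, 3947 for the difference from KO-labelled cells at 2 nM, 5745 for that from WT-labelled and 5579 for that from KO-labelled cells at 20 nM, and 3638 and 5121 for the untreated labels of the second and first series; fewer arrays were used and the pooled variance fell.

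In the response of WT-labelled cells, leaving out untreated replicate 10 moved the rises and falls of each list not given both ways by at most 2 genes. Without untreated arrays 4 and 10 of both labels, the rises and falls were 10 and 24 for G2/M genes, 8 and 15 for the ATF4 list, 8 and 6 for endoplasmic reticulum chaperones, 6 and 6 for NF-kB targets, 11 and 3 for immediate early genes, 6 and 2 for zinc genes, 9 and 3 for sterol synthesis, 8 and 5 for hypoxia-induced genes, 9 and 18 for ribosome biogenesis, 8 and 0 for clock genes, 8 and 6 for housekeeping genes, 18 and 7 for oxidative phosphorylation, 13 and 2 for ribosomal proteins, 5 and 4 for ERK feedback, 4 and 5 for Wnt targets, 2 and 10 for NRF2 genes, 11 and 1 for interferon genes and 1 and 5 for epithelial markers.

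Signs turned in few cases. On the second CDKN1A probe the difference from KO-labelled cells at 20 nM read -0.30, against 1.32 on the brighter probe. With every probe tested, SLC30A5 read -0.79 (adjusted p = 6.10e-07) on another probe, so its probes disagree, and the CDKN1A difference from WT-labelled cells at 20 nM read -1.86. That difference ran from -0.085 to 0.81 with 1 array left out, negative without WT-labelled untreated replicate 5 (-0.074) or 6 of the first series. The XPO1 difference from KO-labelled cells at 2 nM ran from -0.096 to 0.18, negative without WT-labelled untreated replicate 10 or KO-labelled untreated replicate 8 (-0.0073). The XPO1 difference from WT-labelled cells at 20 nM ran from -0.035, without WT-labelled untreated replicate 10, to 0.25, and was -0.12 without untreated arrays 4 and 10. None of these XPO1 values passed the test. The causes were not tested.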
